A study of Mus musculus with 12 samples.

Results

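The cytosolic ribosomal protein genes were compared between TEL-JAK2 leukemia cells and normal thymocytes of the mouse. Members were the genes whose single annotated symbol is Rpl or Rps with a digit (an added letter, x or l being allowed), Rplp0, Rplp1, Rplp2 or Rpsa, without the Rps6k kinases and pseudogenes. Of 8251 genes measured by a probe set with 1 gene symbol, 33 were members, 16 of the large and 17 of the small ribosomal subunit. Each gene was read from 1 probe set, the one with the highest mean over all 12 arrays, and values are log2 of the deposited intensity. A probe set is a group of short DNA probes for 1 transcript, so its signal compares arrays for that gene and does not rank different genes. For 9 members the probe set used carries a suffix that marks possible cross-hybridization, so its signal may include other transcripts. They are Rpl7, Rpl32, Rpl38, Rpl41, Rps4l, Rps13, Rps24, Rps27l and Rps28. A further 38 probe sets are annotated to a ribosomal protein gene together with other loci, and these name no member.

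The 8 leukemia arrays hold RNA from cell suspensions of the thymus of terminally ill mice carrying TEL-JAK2, a fusion of an ETS-family protein with the JAK2 tyrosine kinase. The 4 thymocyte arrays hold RNA from the thymus of wild-type mice aged 2 months, prepared in the same way. All mice had the C57BL/6 background, and neither the age of the leukemic mice nor the promoter driving TEL-JAK2 is named in the labels. Array titles carry what may be animal numbers, but separate animals are not stated, so the p-values reflect only how far these samples spread, which may be technical.

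Ribosomal proteins form the small subunit, which decodes mRNA, and the large subunit, which joins amino acids. They are made in near-equal amounts, and many of their mRNAs start with a C followed by a run of pyrimidines (a terminal oligopyrimidine tract) through which growth signals set their translation. In developing T cells, loss of single ribosomal proteins such as Rpl22 is known to disturb the survival of particular stages.

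Array medians lay between 66.48 and 70.18 intensity units. The difference between the 3′ and 5′ probe sets of Actb, a sign of RNA integrity, was 0.44 ± 0.05 log2 units (SD, n = 8 leukemias) and 0.47 ± 0.10 (SD, n = 4 thymocyte arrays). The marker calls that follow are read beside the shares of all genes called by limma (adjusted p under 0.05), 5.41% higher and 11.9% lower. All 10 measured T-lineage markers were above control level, with Cd2 higher and Cd247 and Cd4 lower in leukemia. Their score ranged from -0.73 to 0.17 log2 units in leukemia against -0.06 to 0.07 in thymocytes, 7 of 8 leukemias being below every thymocyte array. Of 14 measured mitosis genes, 12 fell, and their score ranged from -1.60 to -0.38 in leukemia against -0.20 to 0.35 in thymocytes. Of 18 macrophage markers, limma called 0 (4 were higher at an unadjusted p under 0.05), and their score reached 1.38 in leukemia against at most 0.13 in thymocytes, and 5 of 8 leukemias lay above every thymocyte array. The B-cell score (9 markers, 0 called by limma, 2 higher unadjusted) ranged from 0.01 to 0.83 against -0.05 to 0.04, and the granulocyte score (10 markers, 4 lower) from -0.60 to -0.18 against -0.10 to 0.17. Of the other lists, 1 of 6 NK-cell markers and 1 of 6 erythroid markers fell, all 6 NK-cell markers being near control level. The erythroid score lay below every thymocyte array in 6 of 8 leukemias (-0.71 to 0.13 against -0.10 to 0.14), and of 15 stromal and endothelial markers 1 rose and 1 fell. In bulk samples of this kind, fewer cells of a type and less RNA per cell cannot be told apart.

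Of the ribosomal protein genes, 11 passed the test as higher in leukemia, each by a small amount, and 22 did not pass. The leukemia mean lay above the thymocyte mean for 32 of 33 members (97.0%), against 50.9% of all genes. With limma and an adjusted p under 0.05, these 11 members rose (33.3%) and 0 fell (0.0%), where 17.3% of all genes were called, 5.41% higher and 11.9% lower. At an unadjusted p under 0.05, 19 members were higher and 0 lower. The median difference was 0.18 log2 units, or 13.7%, and members ranged from -0.04 to 0.37, whereas the median over all genes was 0.00. The calls lay in both subunits, with 4 of 16 large-subunit members (median 0.18) and 7 of 17 small-subunit members (median 0.20) past the threshold, and the rises called were between 15.1% and 26.6%.

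The count of calls depended on the kind of scaling and on single thymocyte arrays. Centring arrays on their median or on the mean of the other genes kept all 11 calls and gave 12 each. The shares of all genes called higher were then 6.16% and 5.98%. Quantile normalization left 4 of the 11 calls (Rps7, Rps10, Rps19 and Rpl22), or 12.1% of members beside 5.96% of all genes higher, and a median of 0.11. Of the calls it ended, Rps3 and Rps4x were then at 0.10 each (adjusted p = 0.25 and 0.35), Rpl10a at 0.17 (adjusted p = 0.10) and Rps18 at 0.21 (adjusted p = 0.23). Rps7 kept its call at 0.21. With single arrays left out, 4 members were called without thymocyte 1, 6 without thymocyte 2, 4 without thymocyte 3 and 14 without thymocyte 4, and between 9 and 11 without any 1 leukemia. The share of all genes called higher in those 4 thymocyte fits was 3.78%, 3.75%, 3.68% and 4.61%, also below the 5.41% of the whole set. In the fits without 1 leukemia it lay between 4.68% and 5.85%. In each of these fits 0 members were called lower, and at least 29 of 33 differences were positive.

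**Figure D1:**
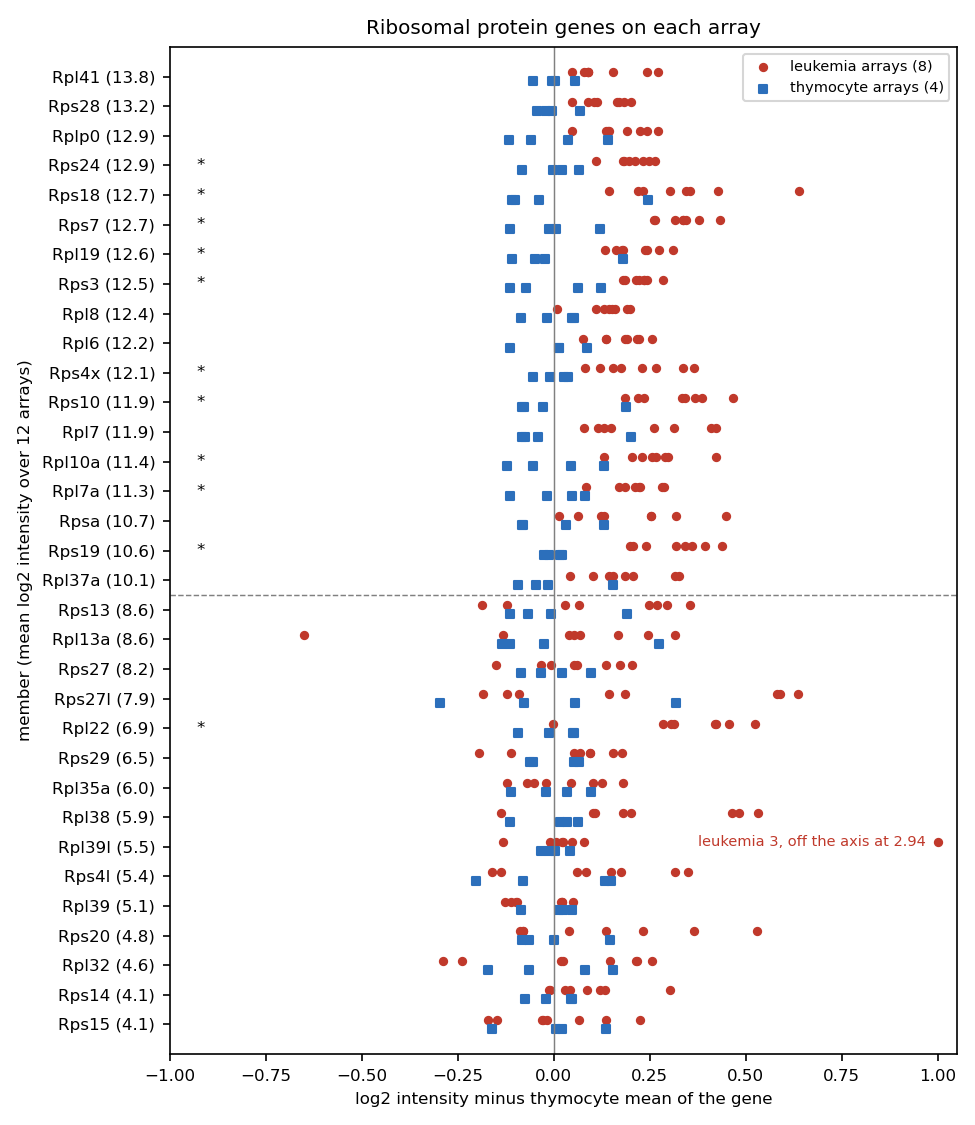
Log2 intensity of each of the 33 members on each array, minus the thymocyte mean of that gene; circles are the 8 leukemia arrays, squares the 4 thymocyte arrays, and asterisks mark the 11 members called. Members are ordered by mean log2 intensity, with a dashed line at 10, and leukemia 3 for Rpl39l is drawn at the right edge because it lies off the axis; the leukemia points of the upper 18 members all lie to the right of 0.

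The differences varied with signal strength. Of the 33, 18 had a mean log2 intensity above 10, a split chosen after the values were seen, and all 18 (100%) had a higher mean in leukemia. Their differences ranged from 0.13 to 0.33 with a median of 0.21, and 10 of them rose (55.6%) while 0 fell. Among the 203 other genes above 10, 25.6% rose, 16.7% fell and 42.4% did either, 54.7% had a higher leukemia mean, and the median difference was 0.05. Signal was not matched between these sets. Of the 20 brightest probe sets, 14 were ribosomal, counting those shared with other loci. The 15 members at or under 10 had a median of 0.09, with 1 called higher (Rpl22) and 0 lower. Over all genes, 5.41% were called higher and 11.9% lower, so this count is not set apart from that share. Of these 15 members, 5 (Rps14, Rps15, Rps20, Rpl32 and Rpl39) stood in both groups below the 95th percentile of the 19 non-mouse control probe sets. That percentile was 5.34 in thymocytes and 5.37 in leukemia. A difference between groups could not be measured for those 5 genes.

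**Figure D2:**
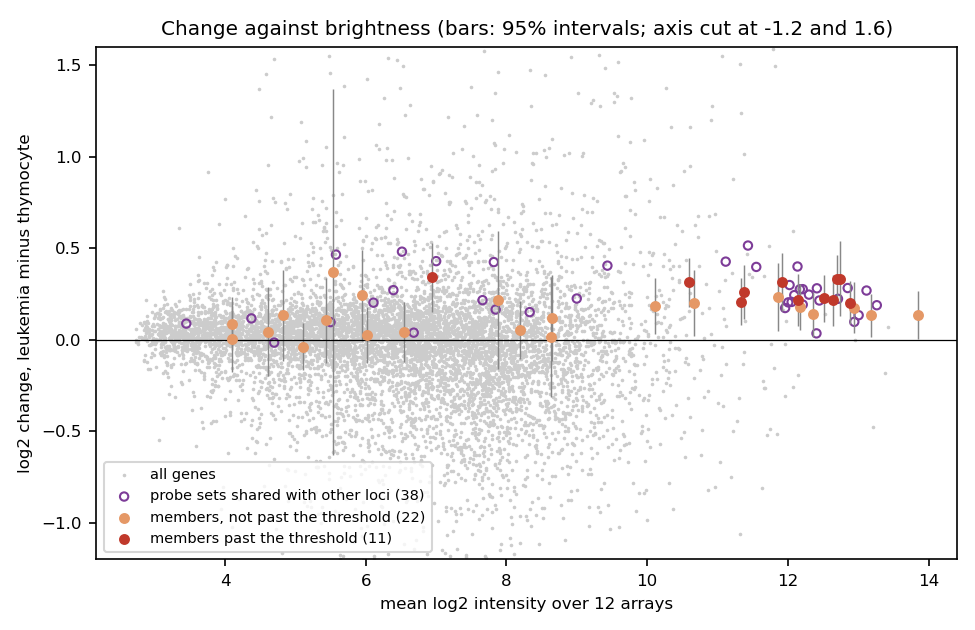
Log2 difference, leukemia minus thymocyte, against mean log2 intensity over 12 arrays for all genes (grey), the 33 members (filled, with 95% intervals of the difference) and the 38 probe sets shared with other loci (open circles). The 18 members above log2 10 lie between 0.13 and 0.33, whereas members at lower signal scatter around 0.09.

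Complete separation of the groups was more frequent among members than over all genes. For 7 of 33 members (21.2%) every leukemia array lay above every thymocyte array, against 4.21% of all genes, and for 0 members (0.0%) all leukemias lay below, against 8.11% of all genes. Above log2 10 the shares were 7 of 18 members (38.9%) and 20.7% of the 203 other genes, 14.8% of which were fully separated downward. Signal was not matched in this comparison either. These 7 members were Rps3, Rps4x, Rps7, Rps19, Rps24, Rpl7a and Rpl10a.

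To show pyrimidine tracts near the starts of these genes, annotated starts were read from RefSeq (build GRCm38.p6), where 26 of 33 members had a promoter. The tract was searched as C followed by at least 6 further C or T within 25 bases on either side of the start on the gene's strand, so a match may lie before the transcript begins. Counting any promoter of a gene, it stood at 15 of 26 members (57.7%) and at 25.6% of all 27025 genes with a promoter, whether or not on the array. It stood at 7 of 11 called and 8 of 15 other members. Among the called ones, the tracts of Rpl10a and Rpl19 ended before the annotated start and that of Rps19 began after it. The windows of 4 called members whose tract spans the annotated start follow, 15 bases on each side of the annotated start, 5′ to 3′ on the gene's strand, with the tract in capitals.
Rpl7a, chr2:26910792-26910821, plus strand: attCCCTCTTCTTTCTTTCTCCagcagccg
Rps10, chr17:27635230-27635259, minus strand: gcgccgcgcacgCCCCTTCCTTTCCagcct
Rps18, chr17:33955651-33955680, minus strand: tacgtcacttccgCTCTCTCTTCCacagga
Rps24, chr14:24490663-24490692, plus strand: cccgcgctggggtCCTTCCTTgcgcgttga

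Promoters were also searched on both strands, from 250 bases before to 50 after the start, for letters bound by general factors. CCGGAAG, an ETS-type motif bound by GABP, stood at 42.3% of members and 9.93% of genes. AAGATGGC (YY1) stood at 15.4% and 3.19%, and GGGCGG (SP1) at 57.7% and 38.2%. CACGTG, the E-box of Myc, stood at 11.5% and 8.09%, and TATAAA at 15.4% and 15.7%. The first of these stood at 4 of 11 called and 7 of 15 other members.

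Among proteins of the small subunit, the largest called rise was that of Rps7, a protein of the body of the subunit that also binds the p53 regulator MDM2. Its log2 intensity on thymocyte arrays 1 to 4 was 12.47, 12.48, 12.36 and 12.60, and in leukemia the lowest, median and highest values were 12.74, 12.82 and 12.91. No array of one group reached the range of the other. The difference was 0.33 (SE 0.06, adjusted p = 0.0017 by limma).

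Rps19, a protein of the head of the small subunit whose human counterpart is mutated in Diamond-Blackfan anemia, was the steadiest of the called members among thymocytes. Its values there were 10.37, 10.41, 10.38 and 10.41, against 10.59, 10.72 and 10.83 as the lowest, median and highest leukemia. The groups were again separate, with a difference of 0.31 (SE 0.06, adjusted p = 0.0031). Rps7, Rps19 and also Rps10 stayed below the threshold of 0.05 whichever array was left out, with adjusted p of at most 0.0096, 0.015 and 0.042 by limma.

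Rps10 and Rps18, both of the head of the small subunit and both with a pyrimidine tract across the annotated start, rose with some overlap. Rps10 gave 11.62, 11.61, 11.67 and 11.89 in thymocytes and 11.88, 12.03 and 12.16 as lowest, median and highest leukemia, a difference of 0.32 (SE 0.07, adjusted p = 0.0083). Of its leukemia arrays 7 of 8 were above every thymocyte array, the exception meeting thymocyte 4. Rps18 gave 12.41, 12.48, 12.42 and 12.76 in thymocytes and 12.66, 12.84 and 13.15 in leukemia, a difference of 0.33 (SE 0.10, adjusted p = 0.028). Only 5 of 8 leukemias passed its highest thymocyte array, which was thymocyte 4.

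Rps3, a protein at the mRNA entry channel, was the member with the tightest leukemia values. Its thymocyte arrays read 12.29, 12.42, 12.25 and 12.48, and the leukemias lay between 12.54 and 12.65 around a median of 12.59. The groups did not overlap, and the difference was 0.23 (SE 0.06, adjusted p = 0.017). Rps4x, the X-linked form of a small-subunit protein, read 11.99, 12.02, 11.95 and 12.04 in thymocytes and 12.08, 12.20 and 12.36 in leukemia, also without overlap. The difference was 0.22 (SE 0.07, adjusted p = 0.038). The gene's other probe sets, at mean log2 intensities of 3.83 to 6.43, differed by -0.04 to 0.18. None of them was called (adjusted p of 0.29 to 0.78 in the fit over all probe sets). With its probe sets averaged, Rps4x differed by 0.13 (adjusted p = 0.27 by limma). Rps4x lost its call whichever thymocyte array was left out. Its relative Rps4l lay close to control level, at 5.37 ± 0.17 (SD, n = 4) in the normal cells and 5.47 ± 0.19 (SD, n = 8) in leukemia, and was not called (adjusted p = 0.58 by limma).

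Rps24, whose human counterpart is also a Diamond-Blackfan anemia gene, read 12.66, 12.76, 12.81 and 12.74 in thymocytes and 12.85, 12.95 and 13.01 in leukemia. The groups were separate, and the difference was 0.20 (SE 0.05, adjusted p = 0.020). This probe set carries a suffix that marks possible cross-hybridization, and the gene's other probe set, at a mean log2 intensity of 4.69, differed by -0.055 (adjusted p = 0.80 in the fit over all probe sets). Rpsa, which is both a protein of the small subunit and a laminin receptor, differed by 0.20 (SE 0.09) without passing the threshold (adjusted p = 0.13), 4 of 8 leukemias being above every thymocyte array.

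Of the large subunit, Rpl10a, a protein of the mobile L1 stalk, read 11.15, 11.25, 11.08 and 11.33 in thymocytes and 11.33, 11.46 and 11.62 as lowest, median and highest leukemia. The lowest leukemia and the highest thymocyte array almost met. The difference was 0.26 (SE 0.07, adjusted p = 0.017), and the gene's other probe set gave 0.34 (adjusted p = 0.015 in the fit over all probe sets). Rpl7a and Rpl19 rose by 0.21 (SE 0.06, adjusted p = 0.029) and 0.22 (SE 0.07, adjusted p = 0.037), the former without overlap and the latter with 4 of 8 leukemias above every thymocyte array. A further Rpl19 probe set, at a mean log2 intensity of 6.99, differed by 0.06 (adjusted p = 0.72 in the fit over all probe sets).

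Rpl22, an RNA-binding large-subunit protein required by developing alpha-beta T cells, was the only called member of low signal. Its probe set read 6.77, 6.77, 6.62 and 6.70 in thymocytes and 6.71, 7.08 and 7.24 as lowest, median and highest leukemia. Leukemia 7 fell among the thymocytes and the other 7 leukemias lay above them. The difference was 0.34 (SE 0.09, adjusted p = 0.016), but a further Rpl22 probe set differed by -0.06 (adjusted p = 0.74 in the fit over all probe sets), so the gene's probe sets disagree.

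**Figure D3:**
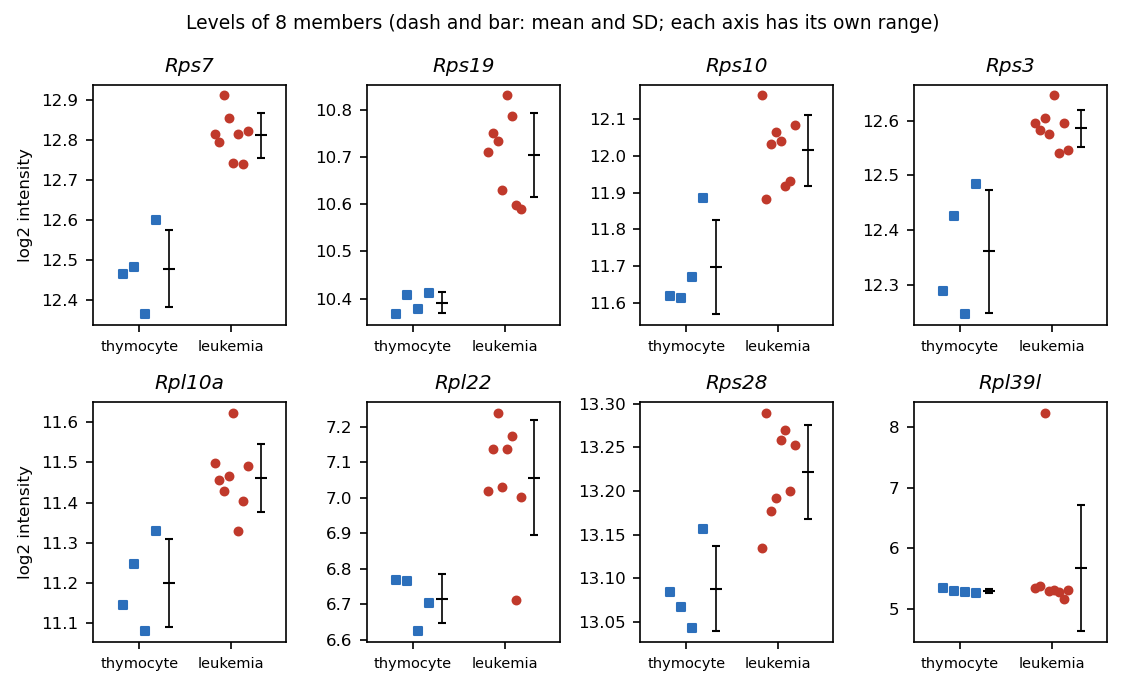
Log2 intensity of 8 members on each array, with mean and SD beside the points; squares are the 4 thymocyte arrays, circles the 8 leukemia arrays, and each panel has its own axis range. Rps7, Rps19, Rps3 and Rpl10a show no overlap, Rps10, Rpl22 and Rps28 overlap, and for Rpl39l leukemia 3 stands alone at 8.24.

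Several strong members did not pass the threshold. Rplp0, the base of the ribosomal stalk and a frequent reference gene for PCR, read 12.77, 12.86, 12.71 and 12.97 in thymocytes and 12.87, 12.99 and 13.10 in leukemia, a difference of 0.18 (SE 0.07, adjusted p = 0.089) that passed at 0.045 when thymocyte 4 was left out. Rpl41, the smallest ribosomal protein, read 13.70, 13.75, 13.76 and 13.81 against 13.80, 13.85 and 14.03, a difference of 0.13 (SE 0.06, adjusted p = 0.17). Rpl8, at the peptidyl transferase center, differed by 0.14 (adjusted p = 0.13) and Rps28 by 0.13 (adjusted p = 0.12), and both were with Rpl39 the members with the smallest SD over all arrays. Quantile normalization, which sets the highest value of every array equal, brought Rpl41 to 0.00 and Rpl8 to 0.02. The probe set used for Rps28 carries a cross-hybridization suffix. A probe set of Rps28 without this suffix, at a mean log2 intensity of 12.6, rose by 0.27 (adjusted p = 0.011 in the fit over all probe sets). A suffixed one at 7.62 differed by 0.23 without a call (adjusted p = 0.59 in that fit). Rpl6 lay just outside the threshold at 0.18 (adjusted p = 0.054) and Rps4x just inside it.

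The weaker members included those with the widest spread. Rpl39l, a testis-enriched copy of Rpl39, read between 5.26 and 5.34 in thymocytes and between 5.16 and 5.37 in 7 leukemias, but 8.24 in leukemia 3, at least 7.26-fold above the thymocyte level set at control signal. Its group difference of 0.37 (SE 0.46, adjusted p = 0.66) became 0.00 without leukemia 3. Rps27l, a p53-induced copy of Rps27, read between 7.55 and 8.37 in leukemia and between 7.44 and 8.05 in thymocytes (adjusted p = 0.47). Rpl38, a member known for selective translation of Hox mRNAs, differed by 0.24 (SE 0.12, adjusted p = 0.19), 7 of 8 leukemias being above every thymocyte array.

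Rpl13a, which takes part in interferon-dependent translational control, differed by 0.01 (SE 0.15, adjusted p = 0.97), with a lowest leukemia of 7.98 and the others at 8.49 or more. Rps20 and Rps14 differed by 0.13 (adjusted p = 0.51) and 0.09 (adjusted p = 0.45) and Rpl39 by -0.04 (adjusted p = 0.72), all at control level. The 95% interval of the Rpl13a difference ran from -0.31 to 0.34, so it includes a rise of the size seen in Rps7.

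Single arrays gave the following values for the strong members. The median difference of the 18 from their thymocyte means was 0.23, 0.20, 0.19, 0.22, 0.26, 0.19, 0.20 and 0.23 in leukemia 1 to 8, and -0.055, 0.015, -0.09 and 0.12 in thymocyte 1 to 4. Every leukemia array had all 18 above the thymocyte mean, whereas the thymocyte arrays had between 1 and 17. The median SD among leukemia arrays was 0.078 for these members, against 0.21 for the 203 other genes above log2 10 and 0.17 for all genes. Signal within those groups was not matched. Among thymocyte arrays it was 0.099, 0.12 and 0.11, in the same order. Members held between 5.65% and 6.16% of the summed intensity of all genes in leukemia and between 4.84% and 5.54% in thymocytes.

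**Figure D4:**
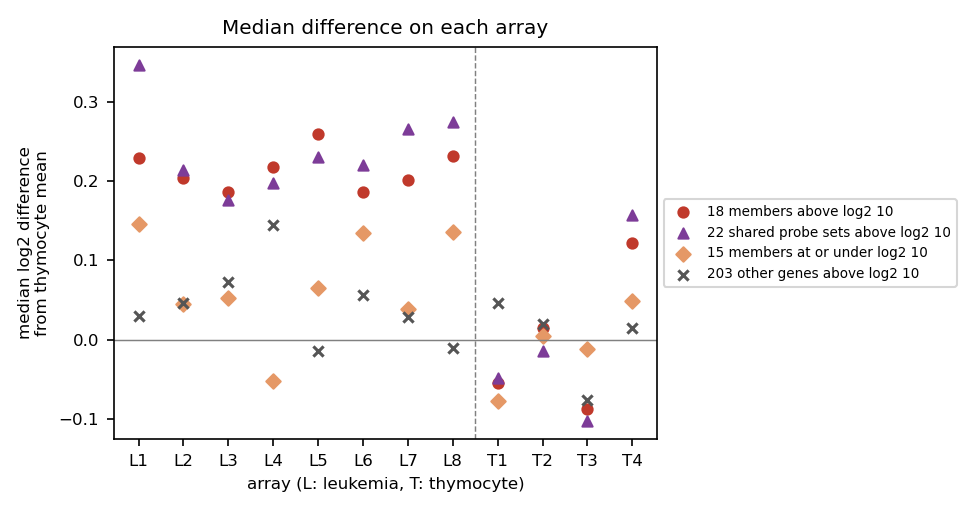
Median log2 difference from the thymocyte mean on each array (L1 to L8 leukemia, T1 to T4 thymocyte) for the 18 members and 203 other genes above log2 10, the 22 shared probe sets above log2 10 and the 15 members at or under 10. The 18 members lie between 0.19 and 0.26 in leukemia and between -0.09 and 0.12 in thymocytes, T4 being the highest thymocyte array.

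Thymocyte 4 is the one thymocyte array whose title lacks a 4-digit number, as do 4 of the leukemia titles, and what the numbers stand for is not stated. Among arrays with such a number (4 leukemia, 3 thymocyte), the median difference of the 18 strong members was 0.27, with 18 of 18 positive and 11 members called, beside 6.59% of all genes higher. Among the others (4 leukemia, 1 thymocyte) it was 0.10, with 17 of 18 positive and 0 members called by limma (0 also at an unadjusted p under 0.05), where 4 of all 8251 genes were called, so that subset could hardly call any gene. With the title number as a block, 12 members were called, beside 6.44% of all genes higher, and the median over all members was 0.18. With the macrophage score as a covariate 6 were called, 5 of them among the 11, beside 4.76% of all genes higher, and the medians were 0.17 over all members and 0.22 over the 18 strong ones. The part of the mitosis genes in the result was not tested.

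The probe sets shared with other loci, which were no members, were also higher. By limma 18 of the 38 rose (47.4%) and 0 fell (0.0%, also 0 at an unadjusted p under 0.05), where 14.5% of all probe sets were called, 4.65% higher and 9.88% lower. Their median difference was 0.22, and all 22 with a mean log2 intensity above 10 were positive. Rps3a1, a small-subunit gene that the symbol rule leaves out, differed by 0.14 (SE 0.07, adjusted p = 0.19).

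Lists of genes that build or serve ribosomes had medians between -0.10 and 0.17, and their calls are read beside the all-gene shares of 5.41% higher and 11.9% lower. Of 71 ribosome biogenesis genes, 4 rose and 8 fell, close to those shares, with a median of -0.01 and a range of -0.71 to 0.51. Those that fell included Taf1c and Ubtf, factors of RNA polymerase I transcription, by 0.71 (adjusted p = 0.00041) and 0.46 (adjusted p = 0.0026) on the log2 scale, and Tcof1, which acts in rRNA synthesis, by 0.48 (adjusted p = 0.0035). Of 61 mitochondrial ribosomal proteins, 3 rose and 2 fell with a median of 0.00, led by Mrps34 at 0.49 (adjusted p = 0.0020).

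Of 33 initiation factors, 2 rose and 5 fell (median -0.03): Eif3m and Eif3k, subunits of the complex that loads the small subunit, rose by 0.51 (adjusted p = 0.0011) and 0.31 (adjusted p = 0.024), and Eif1b fell by 0.83 (adjusted p = 0.00016). Of 11 elongation and termination factors, Eef1d (0.44, adjusted p = 0.015) and Eef2 (0.36, adjusted p = 0.020) rose and Gspt1, a release factor, fell by 0.50 (adjusted p = 0.0012), with a median of 0.00. Among 21 aminoacyl-tRNA synthetases and partners, 4 rose and 0 fell by limma (0 also fell unadjusted) with a median of 0.03, among them Aimp1 (0.45, adjusted p = 0.0029).

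Of 18 ribosome-associated proteins and ubiquitin fusions, a list that also holds the member Rpl39l, 4 rose and 1 fell, and the median was 0.17. Btf3 (0.41, adjusted p = 0.00085) and Naca (0.33, adjusted p = 0.049) form the complex that shields nascent chains, Srp9 (0.40, adjusted p = 0.0077) belongs to the signal recognition particle and Sec61b (0.46, adjusted p = 0.0070) to the translocation channel. Rpl7l1, a nucleolar relative of Rpl7 that is no member, fell by 0.38 (SE 0.12, adjusted p = 0.046).

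Of 19 growth regulators of ribosome synthesis, 1 rose and 3 fell, with a median of -0.10. Larp1, which binds the tract at the start of ribosomal protein mRNAs, rose by 0.54 (SE 0.10, adjusted p = 0.0015) without overlap of the groups. Myc, an activator of ribosome synthesis, differed by 0.29 (SE 0.13, adjusted p = 0.17), and Mtor, the kinase upstream of the tract's control, by 0.10 (SE 0.09, adjusted p = 0.54). Mxd3, a Max partner, fell by 0.64 (adjusted p = 0.010), Pdpk1, a kinase upstream of Akt, by 0.57 (adjusted p = 0.017), and Eif4ebp2, an inhibitor of cap-dependent initiation, by 0.30 (adjusted p = 0.026).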

How the data were processed

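RNA from 8 leukemia and 4 thymocyte samples was measured on 1-colour Affymetrix arrays. The deposited table holds 1 intensity value per probe set and array on a linear scale, which the authors made with RMA per the submitters' processing notes (version not given in the sources used here). RMA commonly scales arrays to each other at the probe level, so a change shared by most RNA would not be seen. The log2 of each value was taken with no further scaling. Of 12488 probe sets, 66 controls were left out. Probe sets were named through GEO's platform annotation: 10833 had 1 gene, 396 several and 1193 none, and 10817 of the single genes matched the RefSeq table. The number of arrays limits the precision.

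Leukemia was tested against thymocyte with limma 3.58.1 (lmFit and eBayes, R 4.3.3), two-sided, over all 8251 genes at once, with Benjamini-Hochberg adjustment and a threshold of 0.05. The steps were tested on simulated data, where recovery was required only for changes far larger than those of the members. Members and lists were chosen with earlier results of these data known. Named members were the 8 largest rises and falls called, the 5 with the highest mean, the 5 with the largest SD in leukemia, the 3 steadiest, and preset genes where measured. Up to 3 called genes per pathway list were named, with Myc, Mtor and Larp1; any other gene named was chosen after its values were seen. A list's score is the mean over its genes of the log2 difference from the thymocyte mean. Alternatives covered scaling, probe set choice, variance model, filter, threshold, test, title number, a macrophage covariate and each array left out.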

Additional observations from a re-analysis of the deposited data

Results flagged for a closer look

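In 5 of 48 groups of member values, 1 leukemia array stood apart from the other 7 by Dixon's criterion, which chance meets in about 1 of 20 groups. Rpl39l read 8.24 in leukemia 3, the next array being at 5.37. Rpl13a read 7.98 in leukemia 5 (next 8.49), Rpl22 read 6.71 in leukemia 7 and Rpl8 read 12.27 in leukemia 6 (next 12.37). Rps14, at control level, read 4.35 in leukemia 6 (next 4.18).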

How the results depend on the processing

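The count of members called higher, 11 as reported, was 4 after quantile normalization (5.96% of all genes then called higher) and 17 with array weights (12.6%). It was 3 at an adjusted p under 0.01 (3.14%), 7 with an exact rank-sum test (4.17%) and 6 with the macrophage covariate (4.76%). The 7 members called by the rank-sum test were the 7 fully separated ones, so that count repeats the separation result. Centring arrays on their median or on the other genes gave 12 each (6.16% and 5.98%). Another variance model (trend and robust) gave 11 (5.28%). Without probe sets with a cross-hybridization suffix the count was 11 of 28 members (5.61%), and over the brighter genes 12 of 23 (8.58%). Leaving out single arrays gave 4 to 14 (3.68% to 5.85%), and averaging a gene's probe sets gave 8 (5.36%). Arrays without a 4-digit title number hold 1 thymocyte array, so their calls allow no reading. No member was called lower in any of these settings (0 throughout, by limma and the rank-sum test). The median difference of 0.18 became 0.11 after quantile normalization, 0.22 and 0.21 with arrays centred on their median or on the other genes, 0.14 with averaged probe sets, 0.21 over the brighter genes and 0.085 among arrays without a 4-digit number, and ranged from 0.15 to 0.22 over single arrays left out. Rps24 reversed to -0.055 when probe sets with a cross-hybridization suffix were dropped, since a dim probe set then stands for it. For the 9 called named members, 182 of 234 alternative values kept the call, 51 lost it and 1 reversed; for the 13 not called, 5 of 329 gained one. No paired analysis was possible because the labels give no shared replicate numbers. The 5 members at control level have no measured difference here, and the cause of the other changes was not tested.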
